A study of Mus musculus with 3 samples.

Results

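The positions of CTCFL peaks were described at 50 genes that act in meiosis and in the germ line. The 50 genes were listed by name and grouped by role, and each was looked up in the GENCODE annotation of the mm9 mouse genome. They comprised 11 genes of double-strand break formation, strand exchange and crossing over, 9 of the synaptonemal complex and chromosome axis, 4 of meiotic cohesin, 15 of the piRNA pathway and germ granule, and 11 germ cell RNA-binding proteins, regulators and others. All 50 were found, and they were set beside the 22359 protein-coding genes of the annotation. For each gene the peaks were recorded whose midpoint lay from 2 kb upstream to 1 kb downstream of a transcription start site (TSS), called the promoter interval here, in the gene body, or within 40 kb of a TSS.

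CTCFL (also called BORIS) is the paralog of CTCF, the zinc finger protein that binds insulators and chromatin loop anchors. The zinc fingers of both proteins are alike, CTCF is present in most cells, and CTCFL is found in male germ cells before meiosis. In meiosis, homologous chromosomes are broken and repaired on each other while a proteinaceous axis and the synaptonemal complex hold them together, and the piRNA pathway silences transposons with small RNAs bound by PIWI proteins. Many of the genes for these processes are kept silent outside the germ line, several of them through methylation of CpG-rich promoters.

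The binding data came from mouse embryonic stem (ES) cells, which are pluripotent cells and not germ cells. The ES cells carried ROSA26-rtTA and a Tet-on construct, TRE-mCTCFL-V5-GFP, and were kept in medium with LIF. They were given doxycycline for 3 days and sorted for GFP, and chromatin was precipitated with an antibody against the V5 tag. Cells of the same line that received no doxycycline and were not sorted were precipitated with the same antibody as control, and CTCF was precipitated with its own antibody from ES cells. Each condition had 1 library, and a peak list of the induced V5 library was the only file analysed here, so no spread between replicates and no test between conditions can be given. The list held 7436 peaks with a median width of 454 bp, given as a start and an end without height, read number or p-value. The depth behind a peak is therefore unknown, absence from the list means only that no peak was called, and CTCF binding at the same positions was not analysed. A list of positions holds no expression values, so the ES cell label and the activity of the genes could not be checked.

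To show what the peaks at the genes looked like at the level of bases, a 14-base weight matrix was learned from 7395 peaks away from the 50 genes, started from the letters AGGNGGC on either strand. Its consensus was CCNNNAGGGGGCGC, where N stands for positions at which no base reached 60% of the sites. Each 14-base window was scored by its log2 odds against the base composition of flanking sequence. A 14-base window above 13.2 was called a CTCF-like site. Flanking windows were stretches as wide as the peaks beside them, and the best score in 5% of these stretches exceeded that value. The 6 promoter peaks that held such a site are shown on mm9, 5′ to 3′, with the site in capitals and 20 bases on either side.
Sycp2 (chr2:178142428-178142481, + strand): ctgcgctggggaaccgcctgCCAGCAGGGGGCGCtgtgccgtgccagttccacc
Dazl (chr17:50432231-50432284, - strand): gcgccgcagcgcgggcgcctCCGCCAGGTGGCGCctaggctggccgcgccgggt
Tex19.1 (chr11:121007276-121007329, + strand): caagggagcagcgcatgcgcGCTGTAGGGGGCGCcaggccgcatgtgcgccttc
Kit (chr5:75971764-75971817, + strand): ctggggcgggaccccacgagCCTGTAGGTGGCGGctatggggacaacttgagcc
Psmc3ip (chr11:100957136-100957189, + strand): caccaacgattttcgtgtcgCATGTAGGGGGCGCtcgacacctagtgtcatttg
Syce2 (chr8:87395435-87395488, - strand): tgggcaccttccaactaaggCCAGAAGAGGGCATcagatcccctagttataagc

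The Sycp2 site matched the consensus at every defined position and scored 21.4, which placed it 55th of the 7436 peaks. Tied peaks were given the same place, and 72 peaks held these same 14 letters. The other sites departed from the consensus, and positions in it are numbered from 1 at the 5′ end. The Dazl site carried G9T and scored 17.9, the Tex19.1 site carried C1G and scored 15.8, and the Psmc3ip site carried C2A and scored 14.7. The Kit site carried G9T and C14G and scored 15.5. The Syce2 site carried G8A, G13A and C14T and scored 14.2, the lowest of the 6.

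The remaining 4 promoter peaks had their best window under the threshold, and these windows are shown for comparison, without flanks.
Tdrd7 (chr4:45985034-45985047, + strand): CCGCTAGGCGGCGT
Mei4 (chr9:81757379-81757392, + strand): CCGCCTGAGGGCGT
Tdrkh (chr3:94217193-94217206, + strand): CCGCTAGGCGGCTG
Rec8 (chr14:56236967-56236980, + strand): CCGCTGGAGGGCGA
Their scores were 13.1 at Tdrd7, just under the threshold, 12.3 at Mei4, 11.2 at Tdrkh and 10.9 at Rec8. The windows at Tdrd7 and Tdrkh shared the change G9C. Those at Mei4 and Rec8 shared G8A and carried A6T and A6G, respectively.

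A promoter peak was present at 10 of the 50 genes (20%), against 11.2% of all protein-coding genes. The 10 genes were Mei4, Tdrd7, Dazl, Rec8, Kit, Tdrkh, Sycp2, Tex19.1, Psmc3ip and Syce2, and every one of the 5 roles held at least 1 of them. A peak lay in the gene body of 6 genes (12%), against 15.0% of all genes. Within 40 kb of a TSS a peak was present at 25 genes (50%), against 41.7% of all genes, and the other 25 had none. The gene list was chosen by name, with earlier results of these data known, and was not sampled. These shares are therefore descriptions without a p-value.

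**Figure D1:**
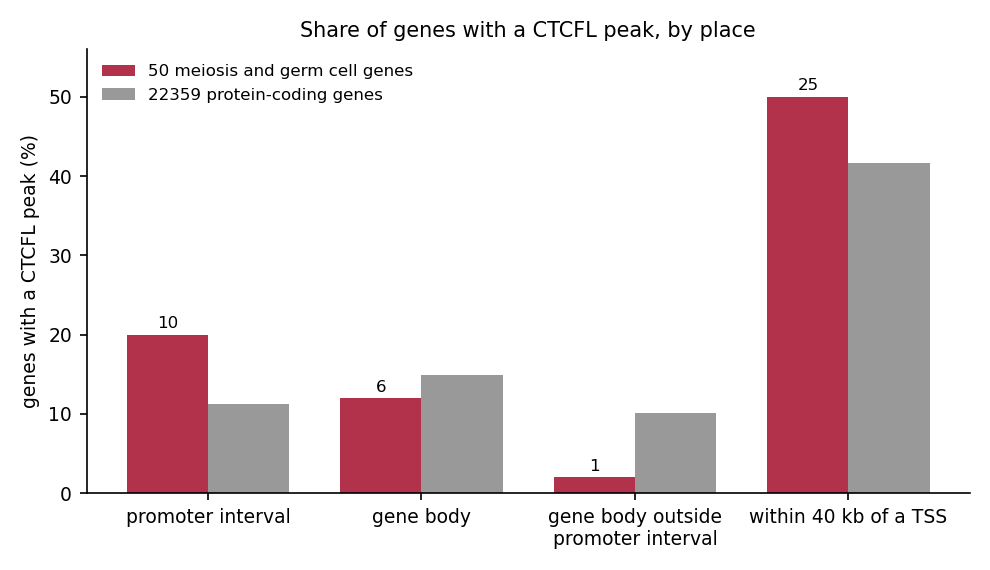
Percentage of genes with a CTCFL peak (y axis) for the 50 meiosis and germ cell genes (red, with the number of genes above each bar) and for 22359 protein-coding genes (grey), by place of the peak midpoint. The red bar was higher in the promoter interval (10 genes) and within 40 kb (25 genes), and lower in the gene body outside the promoter interval (1 gene).

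The 10 promoter peaks lay close to the start sites. Their midpoints were at a median distance of 97 bp from the nearest TSS of the gene, with 5 midpoints upstream and 5 downstream, and 7 of the peaks covered the TSS itself. The same values are not given here for promoter peaks of all genes, so whether these 10 differ from them is not known. Kit at 759 bp downstream and Syce2 at 598 bp upstream were the farthest inside the interval, and the nearest gene outside it was Piwil1, at 3841 bp downstream. No other protein-coding gene shared these start regions. The nearest TSS of another gene was 6679 bp away at Sycp2, where it belonged to Ppp1r3d, and farther at the other 9 genes.

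**Figure D2:**
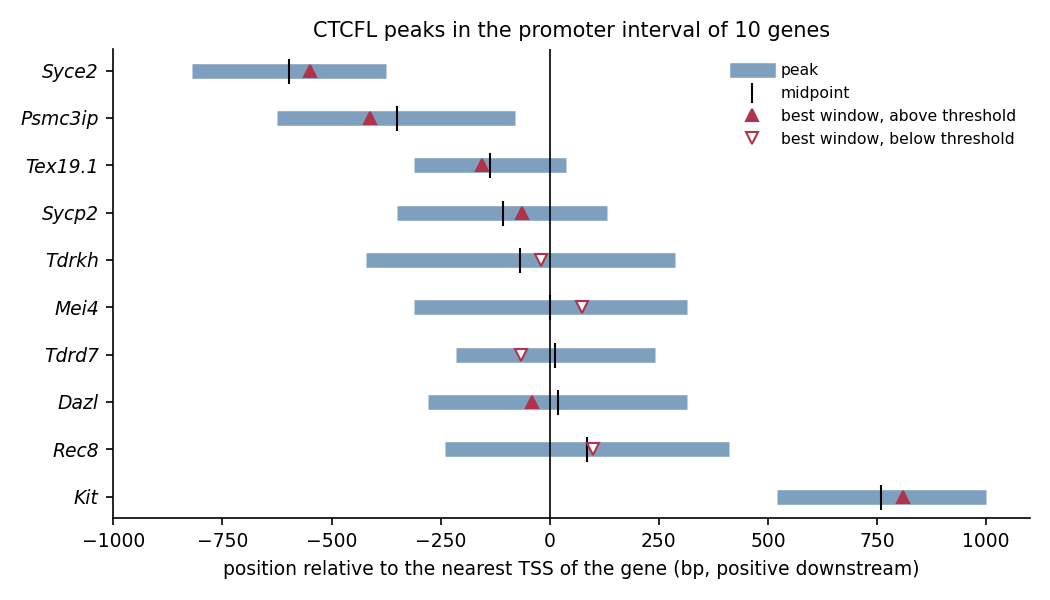
Extent of the 10 promoter peaks (blue bars) relative to the nearest TSS of the gene (x axis, bp, positive downstream), with the peak midpoint (black tick) and the best CTCF-like window (filled triangle above the threshold, open below). The peaks of 7 genes cross the TSS, those of Syce2 and Psmc3ip lie upstream of it, and that of Kit lies downstream.

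Among the genes of double-strand breaks, strand exchange and crossing over, 2 of 11 had a promoter peak and 6 had a peak within 40 kb. The shares of all protein-coding genes were 11.2% and 41.7%. The peak at Mei4, which is required to form meiotic breaks, spanned 627 bp (chr9:81757000-81757626), and its midpoint was 1 bp from a TSS, in the UTR. Of all 50 genes this was the shortest distance. The peak at Psmc3ip, a cofactor of the meiotic recombinase, spanned 546 bp (chr11:100956829-100957374) with its midpoint 351 bp upstream, outside any gene. The nearest peak of Dmc1, the meiotic recombinase itself, lay 11875 bp upstream, in an intron of 4933432B09Rik. Tex15, which acts in break repair and in transposon silencing, had its nearest peak 29042 bp downstream of a TSS and beyond the gene's end, 35 bp upstream of the TSS of Ppp2cb. The crossover factors Msh5 and Mlh3 had their nearest peaks 34528 bp downstream and 35046 bp upstream. From the most upstream TSS alone, neither Tex15 nor Msh5 had a peak within 40 kb. No peak was found within 40 kb of Spo11, which makes the breaks, although its nearest peak was just outside at 41.0 kb. When the TSSs of all transcripts were used, Spo11 did have a peak within 40 kb. The others without a peak were Msh4 (62.6 kb), a partner of Msh5, the crossover gene Tex11 (67.2 kb), which was the only one of the 50 on the X chromosome, Mei1 (113.3 kb), which is needed for break formation, and Prdm9 (143.1 kb), the methyltransferase that marks break sites.

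Of the 9 genes of the synaptonemal complex and axis, 2 had a promoter peak and 3 a peak within 40 kb, against 11.2% and 41.7% of all genes. Sycp2, a component of the axial elements, had a peak of 482 bp (chr2:178142258-178142739) with its midpoint 108 bp upstream of the TSS, and a further peak 10669 bp upstream in an intron of 9030418K01Rik. Syce2, a protein of the central element, had a peak of 444 bp (chr8:87395191-87395634) with its midpoint 598 bp upstream. Another peak lay 24927 bp upstream of Syce2, near the TSS of Calr, and another 31141 bp downstream, in a coding exon of Klf1. The nearest peak of Syce1, also of the central element, was 18096 bp upstream. The remaining 6 genes had no peak within 40 kb. These were Sycp3 (43.9 kb), the other axial component, Tex12 (55.7 kb) of the central element, the axis proteins Hormad1 (123.3 kb) and Hormad2 (164.3 kb), Trip13 (214.2 kb), the ATPase that removes these axis proteins, and Sycp1 (438.2 kb), which forms the transverse filaments.

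In the meiotic cohesin group, 1 of 4 genes had a peak at any of the places examined, against 43.2% of all protein-coding genes. The peak at Rec8, the meiotic kleisin subunit, spanned 651 bp (chr14:56236635-56237285) with its midpoint 86 bp downstream of the TSS, in the UTR. A further peak lay 11585 bp downstream of the TSS, in an intron of Ipo4. The nearest peaks of Stag3 (58.0 kb), Smc1b (89.2 kb) and Rad21l (174.3 kb), which encode other subunits of the meiotic complexes, were all beyond 40 kb.

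Of the 15 genes of the piRNA pathway and germ granule, 3 had a promoter peak and 8 a peak within 40 kb. Across all genes the shares were 11.2% and 41.7%. Tdrd7, a Tudor domain protein of the germ granule, had a peak of 459 bp (chr4:45984889-45985347) centered 13 bp downstream of a TSS. This TSS was 6899 bp downstream of the gene's most upstream one, and from that one alone the peak fell outside the promoter interval. The peak of Tdrkh, which binds PIWI proteins at mitochondria, was the widest of the 10 at 709 bp (chr3:94216796-94217504), with its midpoint 68 bp upstream of the TSS. The peak of Tex19.1, a gene needed to repress retrotransposons in germ cells, was the narrowest at 348 bp (chr11:121007147-121007494), with its midpoint 137 bp upstream. It was also the only peak of the 36 within 40 kb with under 90% of its 36-base windows unique in the genome, at 87.2%.

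Piwil1, a PIWI protein of spermatocytes and spermatids, was the only gene with a peak in the gene body outside the promoter interval. This peak lay in an intron, 3841 bp downstream of the TSS (chr5:129245659-129246266, 608 bp), and another lay 31507 bp upstream. Ddx4 (the germ cell RNA helicase Vasa) had its peak 8814 bp upstream, Mael 15271 bp upstream, Pld6 (the mitochondrial nuclease of piRNA processing) 22257 bp upstream and Mov10l1 (the helicase of piRNA precursors) 24094 bp upstream. The peaks nearest to Ddx4, Mael and Pld6 were 348, -124 and 95 bp from the TSSs of Slc38a9, Ildr2 and Flcn. No peak was found within 40 kb of the PIWI genes Piwil2 (79.4 kb) and Piwil4 (293.0 kb), of Tdrd1 (44.5 kb), Tdrd5 (69.5 kb), Tdrd9 (93.1 kb) and Tdrd6 (128.4 kb), which encode Tudor domain proteins, or of Asz1 (274.4 kb). Tdrd5 is annotated as a lincRNA in this release, so all its transcripts were used and it is not part of the background.

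Among the RNA-binding proteins, regulators and others, 2 of 11 had a promoter peak and 7 a peak within 40 kb, against 11.2% and 41.7% of all genes. Dazl, an RNA-binding protein needed for germ cell development, had a peak of 595 bp (chr17:50431902-50432496) centered 18 bp downstream of a TSS. Kit, the receptor tyrosine kinase of primordial germ cells and differentiating spermatogonia, had a peak of 480 bp (chr5:75971500-75971979) in an intron, 759 bp downstream of the TSS. Nanos3 and Nanos2, RNA-binding proteins of primordial germ cells and spermatogonial stem cells, had their nearest peaks 9950 bp upstream and 11425 bp downstream, and Nanos2 had further peaks at 19068 and 36173 bp downstream. The oocyte transcription factor Figla lay between a pair of peaks, 12787 bp upstream and 11449 bp downstream, and was the gene with the nearest TSS for both. Zbtb16, a transcription factor of spermatogonial stem cells, had a peak 24662 bp upstream, and Nobox, an oocyte transcription factor, had one 34341 bp upstream. No peak was found within 40 kb of the transcription factors Sohlh1 (140.4 kb) and Sohlh2 (384.6 kb), of Tex14 (447.2 kb), a component of the bridges between germ cells, or of Brdt (569.3 kb), the testis bromodomain protein, which was the farthest of all 50 genes.

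**Figure D3:**
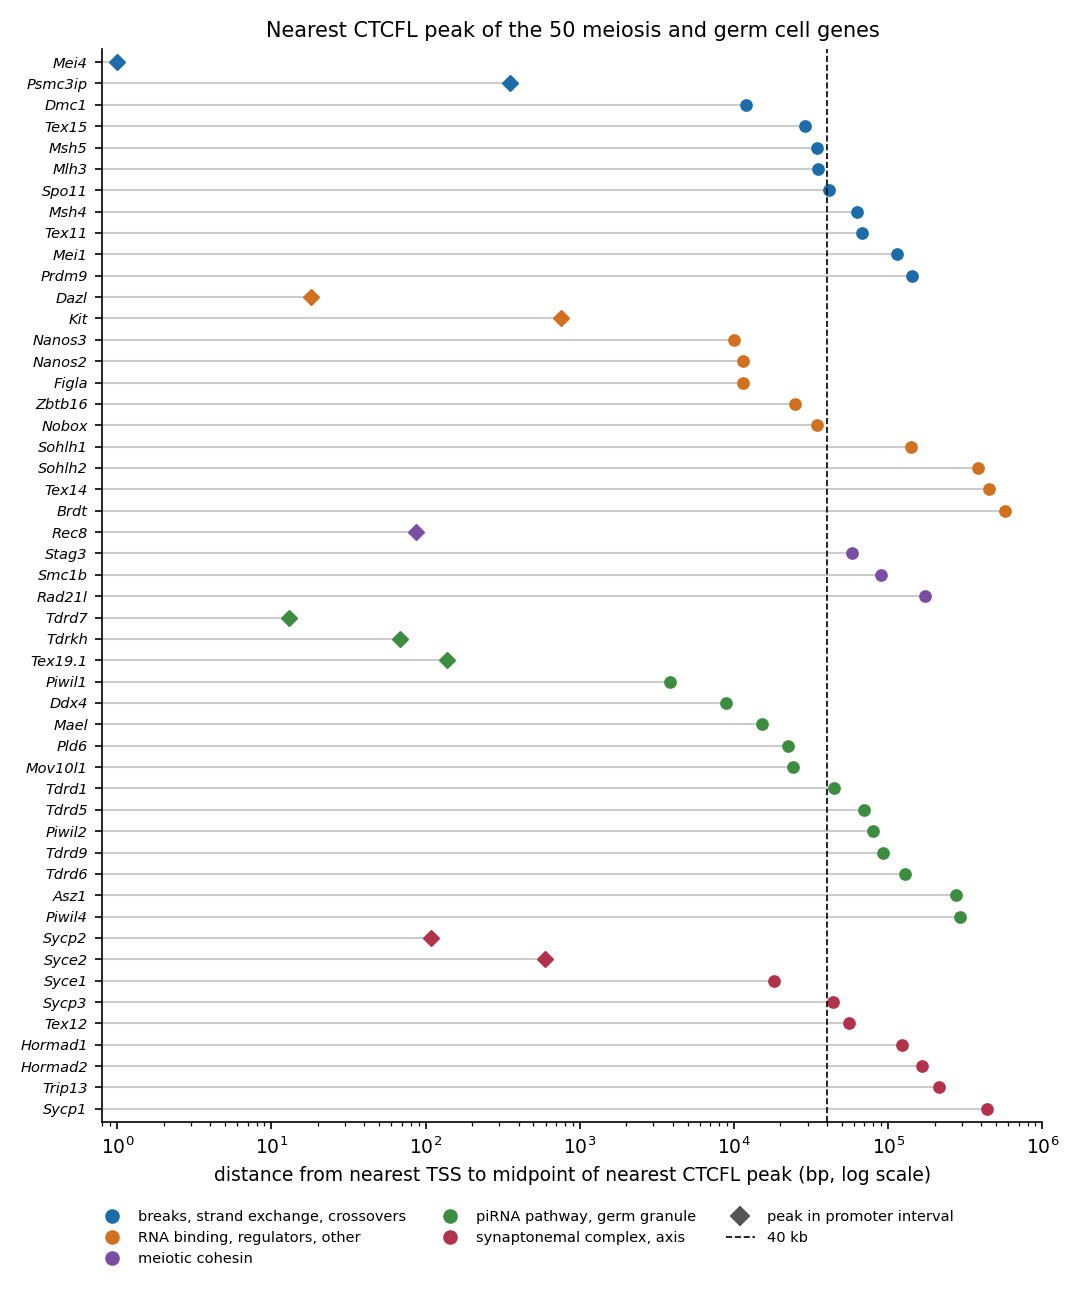
Distance from the nearest TSS of each of the 50 genes to the midpoint of the nearest CTCFL peak (x axis, bp, log scale), ordered within each role by distance. Diamonds mark the 10 genes with a peak in the promoter interval and circles the others, the dashed line is at 40 kb, and Brdt lies farthest at 569.3 kb.

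Across the 50 genes the median distance to the nearest peak was 38.0 kb, with quartiles of 10.3 and 120.8 kb, against a median of 60.9 kb and quartiles of 15.0 and 210.7 kb for all protein-coding genes. A further 11 genes had their nearest peak between 40 and 100 kb. Within 100 kb a peak was thus present at 36 genes (72.0%), against 60.3% of all protein-coding genes, of which 41.7% had one within 40 kb. The remaining 14 of the 50 had it beyond 100 kb, against 39.7% of all protein-coding genes. Between the promoter interval and the Ddx4 peak at 8814 bp only the Piwil1 peak was found. The gene body count was made up almost wholly of peaks at start sites: outside the promoter interval 1 of 50 genes (2.0%) held a peak, against 10.1% of all genes. The 50 genes were longer than the rest, with a median length of 34.1 kb against 15.4 kb. Of the 23 that fell in the longest of 4 equal length classes of protein-coding genes (from 42.5 kb), 0 held such a peak, against 21.8% of all genes of that length.

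The 25 genes with a peak within 40 kb made 36 pairs of a gene and a peak, of 36 different peaks, and no peak was shared by 2 of the genes. In 18 of the 36 pairs (50%) the gene had the nearest TSS to the peak, against 40.5% of all such pairs in the genome. The share depended on the distance allowed, with 15 of 22 pairs (68.2%) within 20 kb, against 58.6% of all pairs, and 20 of 70 (28.6%) within 100 kb, against 21.6%. Within 40 kb, the gene had the nearest TSS for all 10 promoter peaks and for 8 of the other 26. In the remaining 18 pairs a neighboring gene was nearer, and in 6 of them the peak was in the promoter interval of that neighbor: Slc38a9, Ildr2, Flcn, Calr, Ppp2cb and Foxa3. These 6 promoter peaks of neighbors were the ones counted for Ddx4, Mael, Pld6, Syce2, Tex15 and Nanos2. The count for the 10 promoter peaks follows from their positions, since no TSS of another gene was nearer than 6679 bp to these start sites. The same split is not given here for all pairs in the genome, so whether the other counts differ from it is not known.

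The number of neighbors also varied. Of 13 genes with no other protein-coding TSS within 40 kb, 9 had a peak there, against 25.9% of all genes without neighbors. Of 23 genes with 1 or 2 neighbors, 8 had a peak, against 40.2%, and of 14 with 3 or more, 8 had a peak, against 60.8%. The 9 genes with a peak but without neighbors were Mei4, Dmc1, Tdrd7, Piwil1, Dazl, Kit, Figla, Zbtb16 and Nobox.

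The base composition of the promoters was a property that the choice of genes did not use. A promoter was called CpG-rich where the observed/expected CpG ratio was at least 0.6 and the GC content at least 50% within 500 bp of a TSS on either side. By this definition 32 of the 50 genes (64.0%) were CpG-rich, against 48.2% of all protein-coding genes, but with a ratio of at least 0.75 and GC of at least 55% the order turned, with 8 genes (16.0%) against 28.7%. The 24 genes between these limits (48.0%, against 19.5% of all genes) thus formed the largest class. The share by role ran from 4 of 11 among RNA-binding proteins and regulators to 9 of 11 among the genes of breaks, strand exchange and crossing over. Just under the limit of 0.6 was Mei4 (ratio 0.578), and just above it were Mov10l1 (0.604) and Asz1 (0.609).

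A promoter peak was present at 7 of the 32 CpG-rich genes (21.9%), against 18.4% of all CpG-rich genes, and at 3 of the other 18 (16.7%), against 4.57%. The 3 were Mei4, Rec8 and Tex19.1, with ratios of 0.578, 0.491 and 0.444. In the class of highest CpG content, 4 of 8 genes had a promoter peak (Dazl, Syce2, Tdrd7 and Tdrkh), against 19.06% of all genes of that class. In the intermediate class 3 of 24 had one (Kit, Psmc3ip and Sycp2), against 17.41%. Each of these counts rests on a handful of genes, and a single gene moves a share by several percentage points.

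**Figure D4:**
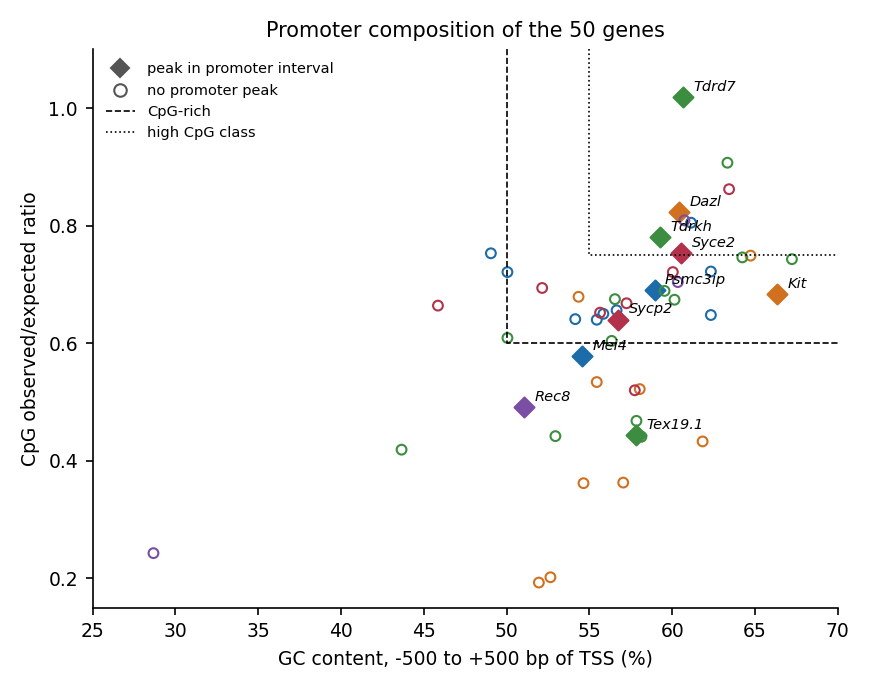
Observed/expected CpG ratio (y axis) against GC content (x axis, %) within 500 bp of a TSS for the 50 genes, colored by role (blue breaks, strand exchange and crossovers; orange RNA binding and regulators; purple cohesin; green piRNA pathway; red synaptonemal complex and axis). Filled diamonds are the 10 genes with a promoter peak, of which 7 lie above the dashed CpG-rich limits and 4 above the dotted limits of the high class.

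A CTCF-like site was found in 22 of the 36 peaks (61.1%), against 59.7% of all peaks. When the 7 letters AGGNGGC were searched exactly in place of the matrix, 28 of the 36 peaks (77.8%) held them, against 60.9% of all peaks and 24.7% of flanking windows. The 36 peaks were wider, with a median of 488.5 bp against 454 bp for all peaks. Whether this bears on the share with the 7 letters was not tested. The site by the matrix was present in 6 of the 10 promoter peaks and in 16 of the 26 others, and the share among all peaks in promoter intervals of protein-coding genes was 58.9%. The median width was 514 bp for the 10 promoter peaks and 515 bp for all peaks in promoter intervals. Scores at distant peaks reached 19.06 in the Psmc3ip peak 28279 bp downstream and 19.05 in the Rec8 peak at 11585 bp. The lowest score was 3.60, in the peak 34341 bp upstream of Nobox.

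**Figure D5:**
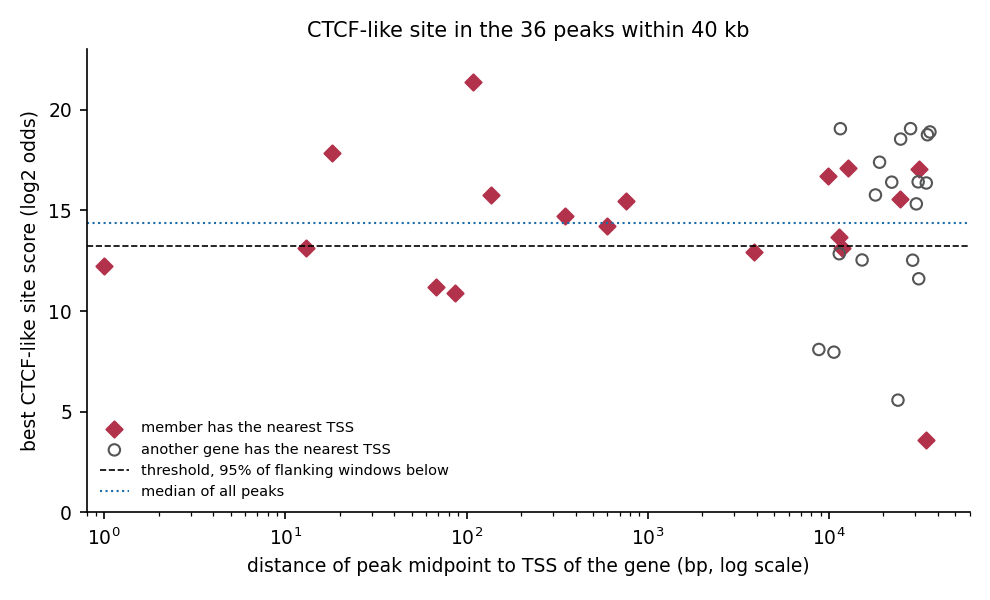
Score of the best CTCF-like window (y axis, log2 odds) in the 36 peaks within 40 kb of the genes, against distance of the peak midpoint from the TSS (x axis, bp, log scale). Filled diamonds are peaks for which the gene has the nearest TSS, the dashed line is the threshold at 13.2, the dotted line is the median of all peaks at 14.4, and 22 of the 36 points lie above the threshold.

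The letters of the sites differed in how often they recur. The 14 letters of the Sycp2 site occurred 198 times in the genome, and 72 peaks held a copy. Those of the Dazl site occurred 20 times, with a copy in 10 peaks, and those of the Psmc3ip site 2 times, with a copy in 1 peak. The letters of the Syce2 site were of another kind, with 33662 copies in the genome and a copy in 44 peaks. The same 14 letters were the best window in the promoter intervals of Dmc1, Mlh3, Msh5, Tdrd6 and Tdrd7, and in these 5 genes no peak covered them. With 20 bases on either side, the Syce2 sequence occurred only at Syce2, and every 36-base window of its peak was unique.

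The promoter intervals were also searched with or without a peak, on both strands. A window above 13.2 was present in 19 of the 50 genes (38.0%), against 36.8% of all protein-coding genes. Both shares were larger than in flanking windows, but the intervals are also longer than a peak, and the reason was not tested. Of these 19, 8 had a promoter peak, against 22.4% of all genes with such a window. Of the 31 without one, Mei4 and Rec8 had a promoter peak, against 4.74% of all protein-coding genes without such a window. At Tdrkh and Tdrd7 the window above the threshold was not in the peak. A stricter score of 16.1, which the best score in 1% of flanking windows exceeded, was passed by 3 genes (6.0%, against 8.68% of all genes): Sycp2, Tex15 and Dazl. Across the genome 43.6% of genes with such a window had a promoter peak.
The Tex15 window is shown since it resembled that of Sycp2, scored 20.3, had its center at -120 bp from a TSS and was in no peak.
Tex15: CCAGCAGGGGGCGG
These letters occurred 46 times in the genome, and 8 peaks held a copy.

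A further 48 genes of the same pathways that are not among the 50 were examined the same way. Of these, 4 (8.33%) had a promoter peak, 6 (12.5%) a peak in the gene body and 22 (45.8%) a peak within 40 kb, against the same 11.2, 15.0 and 41.7% of all genes. The 4 with a promoter peak were Exd1, a piRNA pathway protein, with its midpoint 54 bp downstream of the TSS, Mnd1, the partner of Psmc3ip, at 57 bp downstream, Mus81, a nuclease that resolves joint molecules, at -295 bp, and Sall4, a transcription factor of pluripotent and germ cells, at 53 bp downstream. With Psmc3ip and Mnd1, both subunits of the recombinase cofactor had a peak in the promoter interval. Stra8, the gene of meiotic entry, had its nearest peak midpoint 1238 bp downstream of the TSS, which is outside the promoter interval and inside the gene body. It is not among the 4 because the interval ends 1 kb downstream, whereas the authors describe CTCFL binding in the Stra8 promoter. With peaks at or above the median width only, 4 of the 48 genes (8.33%) stood against 7.51% of all genes, so the order of these shares depends on the width of the peaks kept.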

How the data were processed

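CTCFL-V5 ChIP-seq of induced ES cells was used. The authors mapped their reads with ELAND, and their methods describe BOWTIE alignment to mm9 and peak calling with MACS beside published data sets; which procedure made the deposited list is not given in the sources used here. The deposited file holds peak coordinates only. Starts were converted to count from 1, and midpoints were compared with TSSs of protein-coding transcripts (GENCODE, mm9) in Python 3.11.15 with NumPy 2.4.6, pandas 2.3.3 and pysam 0.24.0. The site matrix was refined over 15 rounds with 5% of the site number added per base; a smaller addition kept the starting letters fixed and was replaced after its matrix was seen. All repeat and window counts refer to the same genome. Counting was tested on simulated positions. No test was run, since there was 1 library per condition and the gene list was hand-chosen. The members and lists were chosen with earlier results of these data known. Every member is named, and of the other pathway genes those with a promoter peak, with Stra8 added after its value was seen. Alternatives covered peak width, uniqueness, interval, TSS choice and site score. The CpG classes, site copies and the search of promoter intervals were added after seeing the data.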

Additional observations from a re-analysis of the deposited data

How the results depend on the processing

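Of 38 alternative settings over 7 results, 35 left the count within 1.5 times of the reported one. The exceptions were the gene body count, which fell to 1 gene when the promoter interval was left out, the peaks with a CTCF-like site, which were 14 of 36 (38.9%, against 34.9% of all peaks) above the score of 99% of flanking windows, and the CpG-rich genes, which were 8 under the stricter limits. Only counts were compared in this way, not shares. The share of pairs in which the gene had the nearest TSS was 50% within 40 kb, 68.2% within 20 kb and 28.6% within 100 kb. The promoter count ranged from 8 to 11 of 50 genes. Peaks at or above the median width lost Syce2 and Tex19.1, peaks with at least 90% unique windows lost Tex19.1, the most upstream TSS alone lost Tdrd7, an interval from 1 kb upstream to 0.5 kb downstream lost Kit, and that of 5 kb to either side added Piwil1. Each of these counts lay above the share of all genes under the same setting. Within 40 kb, the most upstream TSS alone lost Tex15 and Msh5, and TSSs of all transcripts added Spo11. Peaks at or above the median width lost Mlh3, Mov10l1 and Zbtb16 there. The gene body count changed its order, with 6 genes (12%) against 8.69% of all genes for peaks at or above the median width, and 9 genes (18%) against 17.5% when any base of a peak counted. The order also turned for the 48 other pathway genes with wide peaks alone, at 8.33% against 7.51%. No paired analysis was possible because there was a single library for each condition. The list gives no read numbers, so a weak peak cannot be told from a strong one, and an uncalled peak cannot be told from absent binding.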
